A study of Gnathonemus petersii with 18 samples.

Results

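Slc1a3, aqp4 and hepacam are genes by which astroglia and radial glia are commonly recognised, and their levels were measured in 3 tissues of Gnathonemus petersii, the elephantnose fish, which senses its surroundings with weak electric discharges. The 3 genes were taken from the deposited table by their symbols, out of 28031 genes. RNA sequencing libraries were made from trigeminal ganglion, cerebellum and spinal cord, with 6 libraries for each and 18 in total. The labels give 6 fish as the source, and they name only the tissue and a replicate number, with no strain, age, sex or treatment. For the cerebellum libraries the titles and data columns read brain, and the tissue label reads cerebellum. The trigeminal ganglion is a peripheral ganglion that holds the cell bodies of sensory neurons of the head together with satellite glia and Schwann cells, whereas the cerebellum and the spinal cord are central tissues.

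Radial glia are elongated cells that line the ventricles and span the wall of the central nervous system, and in bony fish they persist in the adult and carry out many tasks that star-shaped astrocytes perform in mammals. The product of slc1a3, known as GLAST or EAAT1, takes up glutamate released at synapses and is abundant in cerebellar glia of mammals. Aqp4 codes for a water channel that in mammals is concentrated at the glial endfeet around blood vessels. Hepacam codes for GlialCAM, an adhesion protein which in mammals is found on astrocytes and oligodendrocytes and carries the membrane protein MLC1 and the chloride channel ClC-2 to cell contacts. Satellite glia, which wrap neurons in peripheral ganglia, share some of these genes with astrocytes in mammals.

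Each of the 3 genes had its own pattern over the tissues. Slc1a3 was about equally high in cerebellum and spinal cord and about 20-fold lower in the ganglion. Aqp4 was highest in the cerebellum and low in both other tissues. Hepacam was highest in the spinal cord and similar in ganglion and cerebellum. Levels are given as CPM, the count scaled to library size with TMM, a factor that corrects for differences in library composition. Folds come from edgeR's quasi-likelihood test on the counts. A difference counted as called when it reached 2-fold with a Benjamini-Hochberg adjusted p below 0.05. In these bulk samples, fewer cells of a type and less RNA per cell cannot be told apart.

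**Figure D1:**
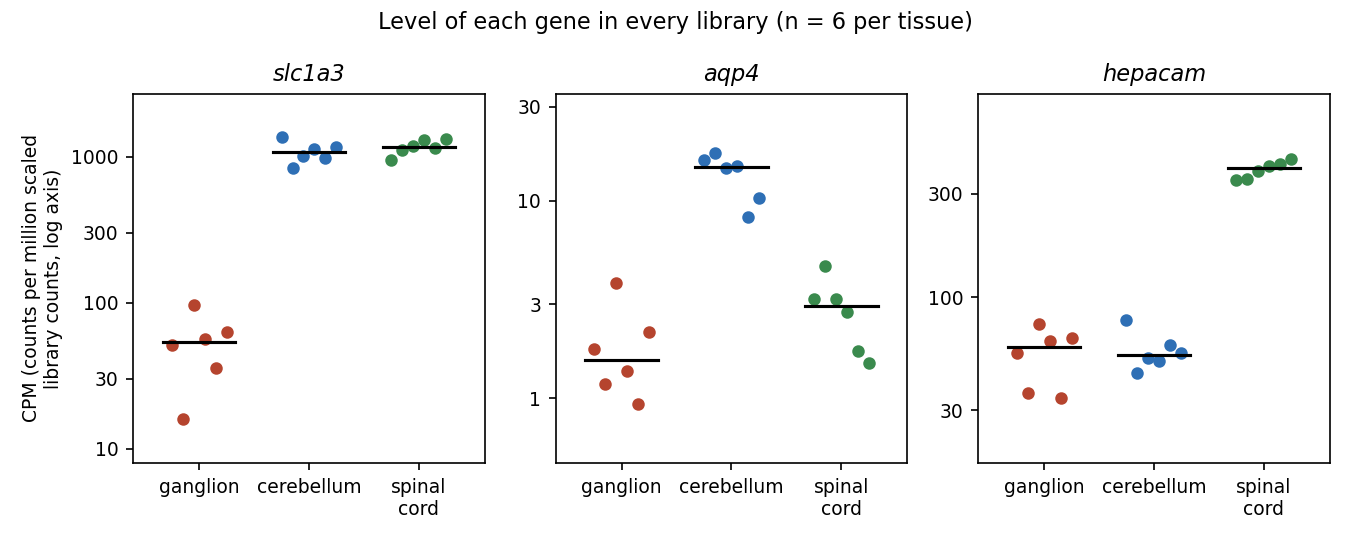
CPM of slc1a3, aqp4 and hepacam (log axis, a separate scale for each gene) in the 6 libraries of each tissue, with points for libraries and lines for medians. The ganglion libraries of slc1a3 lie between 15.9 and 95.9 CPM, below every central library, while aqp4 stands apart in the cerebellum and hepacam in the spinal cord.

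Total counts ran from 10346375 to 17587837 per library, and 21768 to 23955 genes had at least 1 count. The tissues carried their defining genes: isl1 and isl2, factors of sensory neurons, had no count in the cerebellum and means of 177 ± 27.6 and 268 ± 73.2 TPM (SD, n = 6) in the ganglion, where TPM is the authors' level corrected for gene length and library size. The midbrain-hindbrain factor gene en2 was at 496 to 674 TPM in the cerebellum and at most 0.587 TPM elsewhere, and hoxb8, a gene of trunk position, was at 237 to 333 TPM in the spinal cord and at most 0.11 TPM elsewhere. Ganglion replicate 5 stood apart, with a mean Spearman correlation across genes of 0.907 with the other ganglion libraries, against 0.939 to 0.949 for the rest. Replicate 2 was at 0.939, within that range, but an earlier look at these data placed it beside replicate 5, so ganglion values are also given without both where the difference matters.

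Slc1a3 was the most abundant of the 3 genes in the central tissues. In the cerebellum its counts ran from 9652 to 21664 per library and its level from 830 to 1354 CPM, with a median of 1068 CPM. In the spinal cord the level ran from 952 to 1328 CPM, with a median of 1168 CPM. The ganglion libraries 1 to 6 held 51.1, 15.9, 95.9, 56.4, 35.9 and 63.3 CPM, from 135 to 1445 counts. Every ganglion library lay below every central library, and the central tissues overlapped. The mean was 53.1 ± 26.9 CPM in the ganglion, 1078 ± 182 CPM in the cerebellum and 1169 ± 136 CPM in the spinal cord (SD, n = 6 each).

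Ganglion slc1a3 was 20.3-fold below the cerebellum (log2 fold change -4.34 ± 0.305 approximate SE, edgeR adjusted p = 2.20e-10) and 22.0-fold below that of the spinal cord (-4.46 ± 0.307, edgeR adjusted p = 4.14e-10), in 6 of 6 libraries each. Both comparisons use the same ganglion libraries. Spinal cord and cerebellum differed by 0.12 ± 0.265 on the log2 scale (95% interval -0.44 to 0.67, edgeR adjusted p = 0.711), a difference within the spread between libraries. Without ganglion replicates 2 and 5 the values were -4.01 and -4.13. On the log2(TPM + 1) scale, where the median of all genes moved from 0.07 to -0.47, the difference from the cerebellum was -5.09 (limma).

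Aqp4 was a rare transcript, so its counts set the precision. Cerebellum libraries 1 to 6 held 257, 204, 222, 286, 117 and 144 counts, or 8.25 to 17.5 CPM with a median of 14.9 CPM. Spinal cord libraries held 38, 63, 34, 35, 21 and 18 counts, or 3.17, 4.68, 3.2, 2.74, 1.74 and 1.51 CPM. Ganglion libraries held 21, 10, 58, 17, 6 and 23 counts, or 1.77, 1.18, 3.85, 1.38, 0.939 and 2.17 CPM. Every cerebellum library was above every library of the other tissues, and ganglion and spinal cord overlapped, with ganglion replicate 3 above 5 of the 6 spinal cord libraries.

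The cerebellum mean of aqp4, 13.7 ± 3.58 CPM (SD, n = 6), was followed by 2.84 ± 1.15 CPM in the spinal cord and 1.88 ± 1.06 CPM in the ganglion. Ganglion aqp4 was 7.06-fold below the cerebellum (log2 fold change -2.82 ± 0.349, edgeR adjusted p = 6.18e-07) and spinal cord aqp4 was 4.79-fold below it (-2.26 ± 0.337, edgeR adjusted p = 8.97e-06), in 6 of 6 libraries each. Ganglion and spinal cord differed by -0.56 ± 0.342 (95% interval -1.27 to 0.15, edgeR adjusted p = 0.181), which was not called. Without ganglion replicate 3, the highest, that difference was -0.88 with an edgeR adjusted p of 0.0299, still under the 2-fold threshold.

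Hepacam was the spinal cord gene of the 3. Spinal cord libraries held 4037 to 5168 counts and 347 to 434 CPM, with a median of 392 CPM. In the cerebellum the level ran from 44.5 to 78.3 CPM with a median of 54.0 CPM, replicate 1 being the highest. Ganglion libraries 1 to 6 held 55.1, 36.2, 75.4, 62.4, 34.3 and 64.7 CPM. The lowest spinal cord library was above the highest library of each other tissue, while ganglion and cerebellum overlapped over most of their range.

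The mean of hepacam was 387 ± 34.4 CPM in the spinal cord, 56.9 ± 11.7 CPM in the cerebellum and 54.7 ± 16.4 CPM in the ganglion (SD, n = 6 each). It was 6.8-fold higher in spinal cord than in cerebellum (log2 fold change 2.77 ± 0.192, edgeR adjusted p = 3.19e-10) and 7.07-fold lower in ganglion than in spinal cord (-2.82 ± 0.193, edgeR adjusted p = 3.75e-10), in 6 of 6 libraries each. Ganglion and cerebellum differed by -0.06 ± 0.181 (95% interval -0.43 to 0.32, edgeR adjusted p = 0.795). This small value changed sign with the libraries used, to 0.18 without ganglion replicates 2 and 5, and on the log2(TPM + 1) scale it was -0.7 (limma adjusted p = 0.0182), under the 2-fold threshold and against an all-gene median of -0.47.

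**Figure D2:**
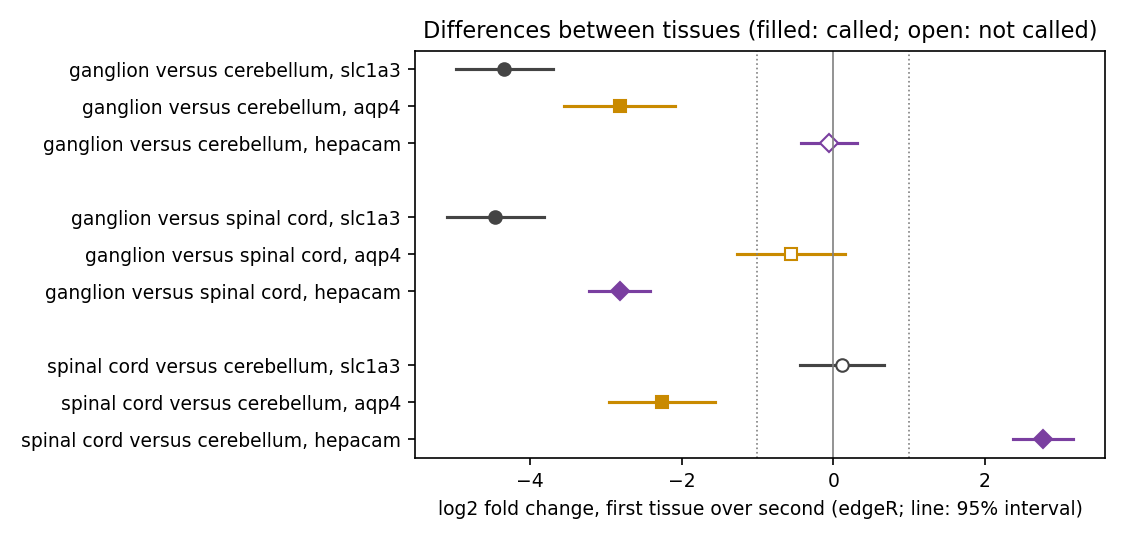
Log2 fold change of each gene in each comparison of tissues (first tissue over second), from edgeR, with approximate 95% intervals as lines and dotted lines at a 2-fold difference. The 6 values beyond the dotted lines are called, and the others are hepacam at -0.06, aqp4 at -0.56 and slc1a3 at 0.12.

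All 3 genes passed the filter on low counts. Of them 2 were lower in ganglion than in cerebellum, where 51.9% of the 20691 tested genes were called, 22.3% lower and 29.6% higher. Between ganglion and spinal cord 2 were lower as well, against 31.7% of tested genes called, 17.3% lower and 14.5% higher. Between spinal cord and cerebellum 1 gene was higher and 1 lower, against 45.2% of tested genes called, 28.9% higher and 16.3% lower. Of all calls 57.1% were higher in ganglion than in cerebellum and 45.5% higher in ganglion than in spinal cord, against 30.4% and 21.7% by limma on log2(TPM + 1). Between spinal cord and cerebellum 5980 genes were higher and 3369 lower, against 4027 and 3802 by limma. Many genes thus separated these tissues, and a call by itself does not set the 3 genes apart. Libraries that did not overlap between tissues were also common: 23.8% of tested genes were lower in every ganglion library than in every cerebellum library, 16.6% lower in every ganglion than in every spinal cord library, 27.3% higher in every spinal cord than in every cerebellum library and 24.6% lower.

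The balance between the genes was then compared within libraries, on TPM values, which correct for gene length and allow levels of different genes to be set side by side. In the ganglion slc1a3 and hepacam stood at near-equal levels, with TPM ratios of 0.552 to 1.6 and a median of 1.2. In the cerebellum slc1a3 exceeded hepacam 20.4-fold to 28.0-fold, and in the spinal cord 3.44-fold to 4.02-fold. The mean log2 ratio was 0.15 ± 0.52 in the ganglion, 4.57 ± 0.17 in the cerebellum and 1.92 ± 0.09 in the spinal cord (SD, n = 6 each, 0.1 added to each TPM), with no overlap between tissues. Spinal cord and cerebellum thus had like levels of slc1a3 and a ratio to hepacam that differed 6.3-fold.

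Aqp4 was the least abundant of the 3 genes in every library. Slc1a3 exceeded it 14.1-fold to 42.8-fold in the ganglion, 49.5-fold to 123-fold in the cerebellum and 247-fold to 919-fold in the spinal cord. The ratio of aqp4 to hepacam had a median of 0.291 in the cerebellum, 0.0388 in the ganglion and, lowest, 0.00912 in spinal cord libraries. From cerebellum to spinal cord it differed 32.9-fold (difference in mean log2 ratio -5.04), which was the widest of the 9 differences in ratio tested.

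In each of the 9 tests (3 ratios, 3 pairs of tissues) the libraries of the tissues did not overlap, and the exact two-sided permutation test gave p = 0.00216 and an adjusted p over the 9 of 0.00216. That is the smallest p that 6 libraries against 6 can give. The test takes the libraries as unpaired, and a test over same-number pairs is given further below. The 3 genes therefore differed from one another in how much they changed between every pair of tissues. How many other pairs of genes would separate the tissues in this way was not examined, so these tests do not set the 3 genes apart. Because the ratios are formed within a library, library scaling cancels except through the 0.1 added to each TPM. With 1 in place of 0.1 added to the TPM, the difference in slc1a3 over aqp4 between ganglion and cerebellum was -2.48 in place of -1.7, the low level of aqp4 making it sensitive to that addition.

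**Figure D3:**
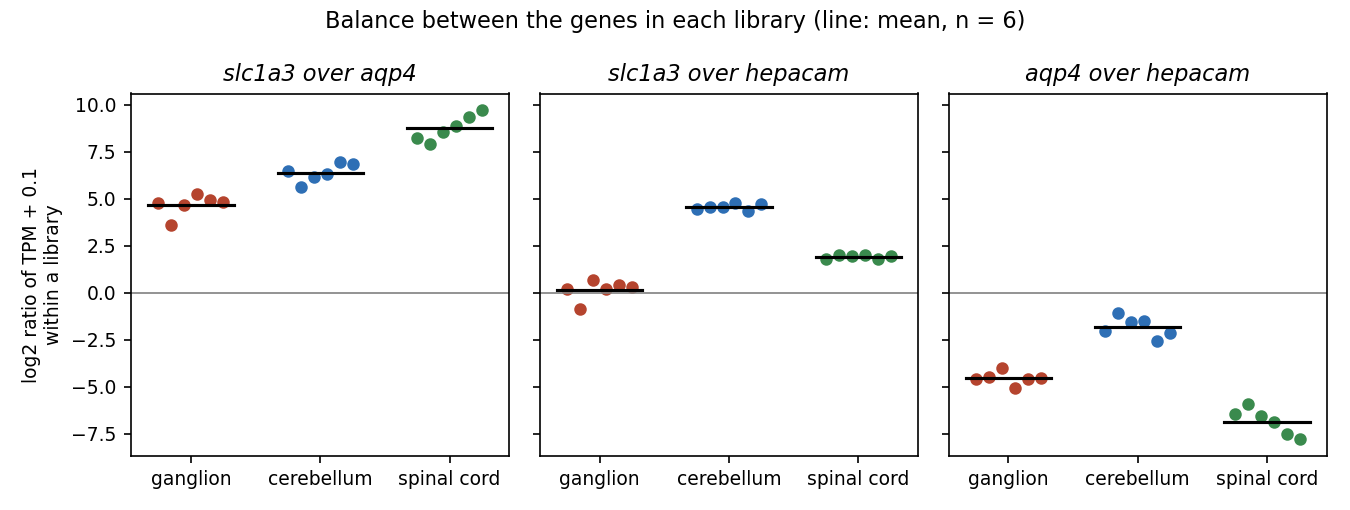
Log2 ratio of TPM + 0.1 between 2 genes within each library, for the 3 pairs of genes, with points for libraries and lines for the mean of 6. No tissue overlaps another in any panel, and the spinal cord libraries of slc1a3 over hepacam lie closest together, with an SD of 0.09.

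Within a tissue, slc1a3 exceeded aqp4 and hepacam exceeded aqp4 in 6 of 6 libraries of each tissue (exact two-sided sign-flip permutation test, p = 0.0312, the smallest that 6 libraries allow, adjusted over 9 tests p = 0.0352). The same p held for slc1a3 over hepacam in cerebellum and spinal cord. In the ganglion slc1a3 was above hepacam in 5 of 6 libraries, with a mean log2 difference of 0.15 ± 0.52 and an exact permutation p of 0.469. The order on the TPM scale was thus slc1a3, hepacam, aqp4 in both central tissues, and in the ganglion the difference between slc1a3 and hepacam did not pass the test. There replicate 2, at -0.85, lay below the other 5 libraries, which ran from 0.18 to 0.67, and without it the mean was 0.35 (exact permutation p = 0.0625, the smallest that 5 libraries allow).

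The genes varied more between ganglion libraries than between central ones. The highest ganglion library exceeded the lowest 6.03-fold for slc1a3 on the CPM scale, against 1.63-fold in the cerebellum and 1.39-fold in the spinal cord. The SD was 50.7% of the mean for slc1a3 and 56.4% for aqp4 in the ganglion, against 11.6% and 40.5% in the spinal cord, where hepacam was at 8.89%. Ganglion replicate 3 was the highest for each of the 3 genes, and replicates 2 and 5 were the lowest for each.

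Over the 6 ganglion libraries the levels of the genes moved together in rank, although no correlation passed after adjustment. Pearson's r of log2 CPM was 0.877 for slc1a3 with hepacam (Spearman's rho 0.943, exact permutation p = 0.00972 and 0.0167, adjusted over 9 p = 0.0719 and 0.075). For aqp4 with hepacam r was 0.858 (rho 0.943, exact permutation p = 0.025 and 0.0167, adjusted p = 0.0719 and 0.075), and for slc1a3 with aqp4 it was 0.765 (rho 0.886, exact permutation p = 0.0875 and 0.0333, adjusted p = 0.131 and 0.1). Without the 2 libraries farthest from the median of the first gene, r was 0.987, 0.727 and 0.89.

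In the central tissues slc1a3 with hepacam again had a positive r, the relations with aqp4 had other signs, and none passed after adjustment. Whether r differed between tissues was not tested. In the spinal cord slc1a3 and hepacam had r = 0.842 (rho 0.829, exact permutation p = 0.0319 and 0.0583, adjusted p = 0.0719 and 0.105), falling to 0.6 without replicates 1 and 6. There aqp4 ran opposite to hepacam, at r = -0.881 (rho -0.829, exact permutation p = 0.0222 and 0.0583, adjusted p = 0.0719 and 0.105), and at -0.672 without replicates 5 and 6. In the cerebellum slc1a3 with hepacam was at 0.791 (rho 0.6, exact permutation p = 0.0694 and 0.242, adjusted p = 0.125 and 0.311), but the relation rests on replicates 1 and 2, without which r was -0.458. The remaining 3 of the 9 relations had r between -0.495 and -0.012, with exact permutation p-values of r of at least 0.329.

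**Figure D4:**
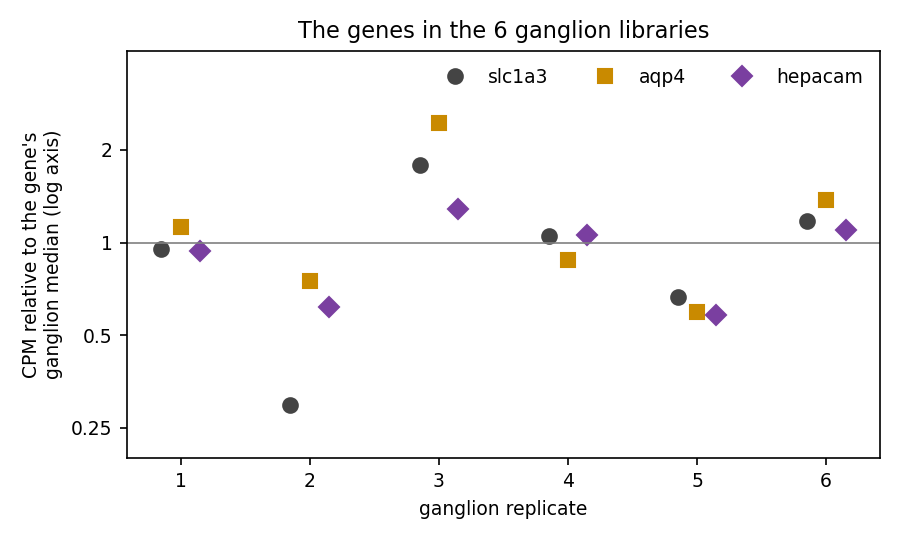
CPM of each gene in the 6 ganglion libraries, divided by the gene's ganglion median (log axis). Replicate 3 is the highest and replicates 2 and 5 are the lowest for each gene, slc1a3 falling furthest in replicate 2, at 15.9 CPM.

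Marker lists of other cells moved in these ganglion libraries too. Genes of satellite glia and Schwann cells (7 matched) summed to 6058 TPM in replicate 5 and to 2286 to 3924 TPM in the others. Neuronal genes (10 matched) summed to 1456 TPM in replicate 5 and to 2402 to 3473 TPM in the others, with 2548 TPM in replicate 2. The 24 other astroglia and radial glia genes summed to 6423 TPM in replicate 5 and to 9784 TPM in replicate 2, within the range of 8023 to 10471 TPM of the remaining libraries. Some lists were, like the 3 genes, highest in replicate 3 and lowest in replicates 2 and 5. Oligodendrocyte genes summed to 619 TPM in replicate 3, and to 341 and 383 TPM in replicates 2 and 5. Partners of GlialCAM, a list described below, summed to 695, 533 and 352 TPM in the same libraries. Others did not, such as leukocyte and microglia genes, highest in replicate 5 at 9204 TPM. The part of these lists in the spread of the 3 genes was not tested.

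Other genes of glial function were examined as 6 lists. Of 115 symbols 63 matched a gene in the table and 61 were tested. The counts of the lists stand beside the shares of all tested genes. In ganglion against cerebellum 29.6% of those were higher and 22.3% lower. Against the spinal cord the shares were 14.5% higher and 17.3% lower, and in spinal cord against cerebellum 28.9% higher and 16.3% lower. Of the 61 list genes 16 were higher in ganglion than in cerebellum, 20 lower and 25 not called. Their median log2 fold change was -0.17 beside 0.07 for all tested genes. Against the spinal cord 6 were higher, 29 lower and 26 not called (median -0.86 beside -0.01). Between spinal cord and cerebellum 28 were higher in the spinal cord, 6 lower and 27 not called (median 0.9 beside 0.08). On the log2(TPM + 1) scale the all-gene medians were -0.47, -0.36 and -0.11 and those of the lists -0.67, -1.09 and 0.65.

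Glutamate and amino acid uptake genes were lower in the ganglion in 3 of 6 cases against the cerebellum and in 4 of 6 against the spinal cord, and higher in 2 and 1. The glutamate transporter genes slc1a1 and slc1a2 were, like slc1a3, lower in the ganglion in both comparisons. Slc1a2, whose product GLT-1 clears most synaptic glutamate in the mammalian forebrain, was at 0 to 0.887 TPM in the ganglion, 4.25 to 10.5 TPM in the cerebellum and 2.88 to 3.97 TPM in the spinal cord, far below slc1a3 throughout. These levels are of the gene matched by symbol, and copies of slc1a2 under a locus identifier were not examined. The log2 fold change of slc1a2 was -4 ± 0.537 in ganglion against cerebellum (edgeR adjusted p = 1.82e-06) and -2.98 ± 0.529 against spinal cord (9.76e-05). Slc1a1, known as a neuronal glutamate transporter in mammals, had means of 1.12 TPM in ganglion, 27.7 TPM in cerebellum and 42.7 TPM in spinal cord (SD 0.879, 3.03 and 6.15, n = 6 each). Slc7a10, which carries small neutral amino acids in mammalian astrocytes, was at 6.6 ± 4.41, 9.01 ± 2.3 and 107 ± 20.3 TPM in ganglion, cerebellum and spinal cord, and was 13.8-fold higher in spinal cord than in cerebellum (edgeR adjusted p = 1.17e-07). Between spinal cord and cerebellum 2 of the 6 genes were higher and none lower by edgeR with TMM, while DESeq2, RLE scaling and the fit without ganglion replicates 2 and 5 each called 1 lower. Slc1a2 was at -1.02 ± 0.453 there (edgeR adjusted p = 0.0545), the only gene of the list lower at an unadjusted p under 0.05.

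GABA and glycine uptake genes were lower in the ganglion in 3 of 8 cases against the cerebellum and in 6 of 8 against the spinal cord, and none was called higher in either by edgeR or DESeq2, with 1 higher in each at an unadjusted p under 0.05. Slc6a11, a GABA transporter gene of astrocytes in mammals, averaged 13.1, 182 and 510 CPM and was higher in spinal cord than in cerebellum by 1.49 ± 0.224 (edgeR adjusted p = 1.03e-05). The glycine cleavage gene gcsh averaged 96.9, 137 and 70.1 CPM in ganglion, cerebellum and spinal cord, with differences under 2-fold. Without ganglion replicates 2 and 5, 1 gene of this list was higher in ganglion than in cerebellum, and limma on log2(TPM + 1) called 7 lower in place of 3.

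Aquaporin genes other than aqp4 matched by symbol were aqp11 and aqp9. Aqp11, whose product sits in internal membranes, was at 23.1 ± 6.64 TPM in ganglion, 39.4 ± 8.12 TPM in cerebellum and 15.5 ± 2.55 TPM in spinal cord (SD, n = 6 each), above aqp4 in each tissue. Like aqp4 it was lower in spinal cord than in cerebellum (-1.13 ± 0.193, edgeR adjusted p = 4.12e-05), but in ganglion against cerebellum it was at -0.17 ± 0.19 and not called. Aqp9 was at most 0.792 TPM in any library and did not pass the filter.

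The dystrophin complex anchors the aqp4 product at glial endfeet in mammals. By edgeR its genes called against the cerebellum were mostly higher, where aqp4 was lower, but the list's median changed sign with the scale. Of 12 tested, 5 were higher and 1 lower in ganglion than in cerebellum (29.6% and 22.3% of all tested genes). Against the spinal cord 3 were higher and none lower (14.5% and 17.3%). In spinal cord against cerebellum 4 were higher and none lower (28.9% and 16.3%), all by edgeR. DESeq2 also called none lower in the last 2, where 1 and 4 genes were lower at an unadjusted p under 0.05. Limma on log2(TPM + 1) called 1 lower in each of these last comparisons, and called 2 and 0 higher in the ganglion in place of 5 and 3. The dystroglycan gene dag1 averaged 268 CPM in ganglion, 89.8 CPM in cerebellum and 241 CPM in spinal cord, and was 2.98-fold higher in ganglion than in cerebellum (edgeR adjusted p = 1.77e-06). The sarcoglycan genes sgce and sgcb were not called in any comparison, with sgce at 173, 157 and 190 CPM and sgcb at 79.5, 90.3 and 97.2 CPM. The list's median was 0.6, 0.3 and 0.19 in the 3 comparisons and turned to -0.07, -0.17 and -0.03 on the log2(TPM + 1) scale. The calls, 6 of 12 in ganglion against cerebellum, were close to the share of 51.9% among all tested genes. The gene called lower there was dtna, a dystrobrevin gene, named after its values were seen. It was at 6.63 ± 4.16 TPM in ganglion, 33.1 ± 1.57 TPM in cerebellum and 14.6 ± 3.04 TPM in spinal cord (SD, n = 6 each), the tissue order of aqp4. This complex also serves muscle and other cells. Acta1, the skeletal muscle actin gene, was at 142 to 1783 TPM in the spinal cord (median 976), at 4.68 to 3782 TPM in the ganglion (median 60.1, highest in replicate 1) and at most 1.4 TPM in the cerebellum, so it was higher in both tissues in which genes of the complex were called above the cerebellum. The part of muscle in these calls was not tested.

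Partners of GlialCAM and genes of glial ion and volume control were called in both directions against the cerebellum. Of 10 tested, 3 were lower and 1 higher in ganglion than in cerebellum. Against the spinal cord 6 were lower and none higher by edgeR and DESeq2 (1 higher at an unadjusted p under 0.05). In spinal cord against cerebellum 4 were higher and 1 lower. Among all tested genes 51.9%, 31.7% and 45.2% were called in these comparisons, in the same order. Mlc1, whose product is held at the membrane by GlialCAM in mammals, averaged 31.0 ± 6.3 CPM in ganglion, 187 ± 40.6 CPM in cerebellum and 343 ± 99.1 CPM in spinal cord. It was 6.04-fold lower in ganglion than in cerebellum (log2 fold change -2.59 ± 0.221, edgeR adjusted p = 3.56e-09), a comparison in which hepacam was at -0.06, and 0.88 ± 0.208 higher in spinal cord than in cerebellum, under 2-fold. The potassium channel gene kcnj10, which codes for the Kir4.1 channel of glia, was likewise highest in the spinal cord, with 195, 134 and 709 CPM in ganglion, cerebellum and spinal cord, and was 5.29-fold higher in spinal cord than in cerebellum (edgeR adjusted p = 9.52e-07). The sodium pump subunit gene atp1b1 averaged 494, 296 and 362 CPM with no difference called.

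Among 24 further astroglia and radial glia genes, 8 were higher and 10 lower in ganglion than in cerebellum, 2 higher and 13 lower against the spinal cord, and 16 higher and 3 lower in spinal cord than in cerebellum. Fabp7, a lipid carrier gene of radial glia that satellite glia also express in mammals, was at 958 CPM in ganglion, 1390 CPM in cerebellum and 2801 CPM in spinal cord. It was called lower in ganglion than in spinal cord (-1.55 ± 0.195, edgeR adjusted p = 1.74e-06) but not than in cerebellum (-0.54 ± 0.191). That last contrast depends on the scale. In TPM, fabp7 was at 1339 to 3146 in ganglion and 3649 to 6157 in cerebellum. The all-gene median on log2(TPM + 1) was -0.47 there. S100b, a calcium-binding protein gene of glia, averaged 753, 503 and 3335 CPM and was 6.63-fold higher in spinal cord than in cerebellum (edgeR adjusted p = 1.60e-10), a fold close to the 6.8 of hepacam. Clu, the gene of a secreted chaperone, went the other way to slc1a3: at 5007 CPM in ganglion it was 5.33-fold above the cerebellum (edgeR adjusted p = 6.77e-11) and 2.26-fold above the spinal cord (edgeR adjusted p = 2.15e-06).

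**Figure D5:**
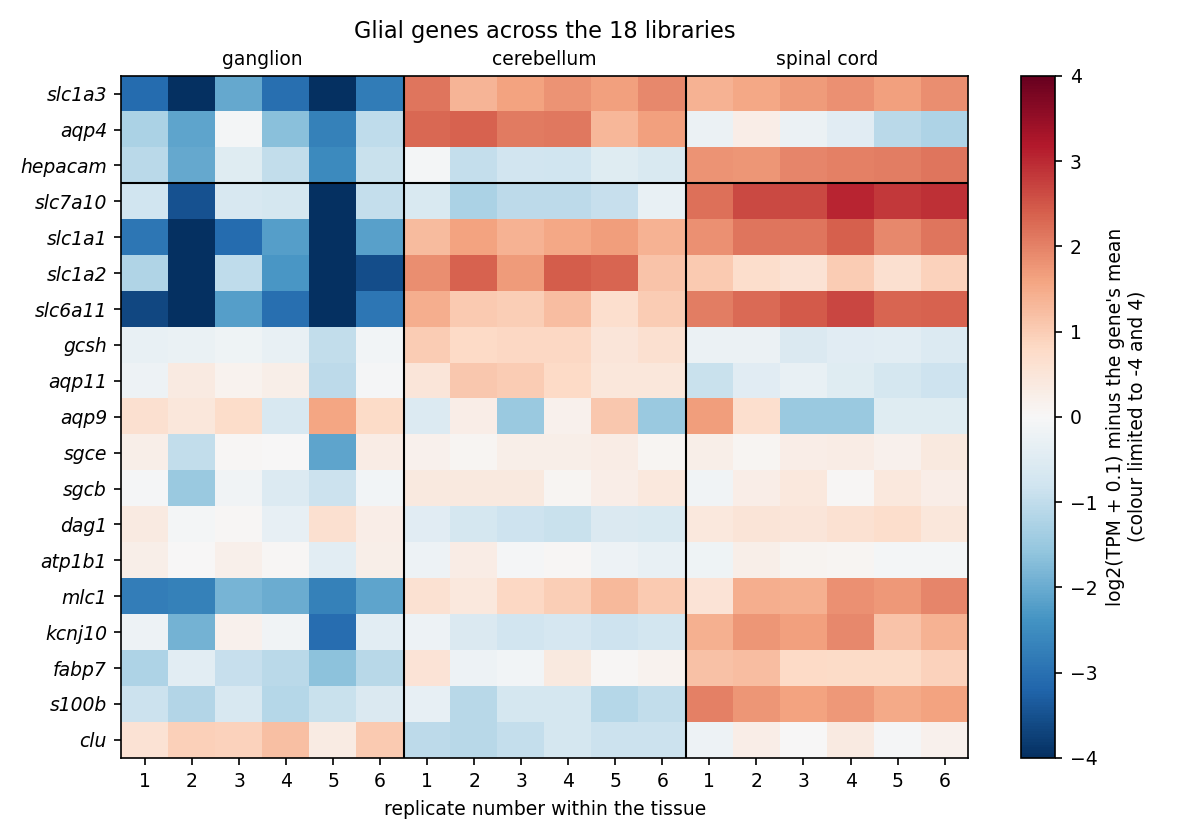
Log2(TPM + 0.1) of slc1a3, aqp4, hepacam and 16 other glial genes in the 18 libraries, minus each gene's mean over all libraries (colour limited to -4 and 4). Slc1a3, slc1a1 and slc6a11 are low in every ganglion library, hepacam, slc7a10, kcnj10 and s100b are high in every spinal cord library, and aqp4 is high in the cerebellum.

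Marker genes of several other cell types were, like hepacam, higher in spinal cord than in cerebellum, a comparison in which 28.9% of all tested genes were called higher. Of 10 tested oligodendrocyte genes 8 were higher in the spinal cord and none lower by edgeR or DESeq2, nor at an unadjusted p under 0.05 (median 2.32), with summed levels of 1782 to 2113 TPM in spinal cord, 552 to 712 TPM in cerebellum and 341 to 619 TPM in ganglion. The lineage factor gene olig2, chosen after its values were seen, was at 155 to 294 TPM, 41.2 to 90.2 TPM and 5.67 to 20.9 TPM in the same order. Of 9 tested genes of ependymal and ciliated cells 8 were higher in the spinal cord and likewise none lower by edgeR, DESeq2 or an unadjusted p under 0.05 (median 2.99), with 52.2 to 112 TPM in sum against 7.63 to 12.7 TPM in the cerebellum. Of 7 genes of satellite glia and Schwann cells 5 were higher (median 3.38), summing to 1378 to 2527 TPM in spinal cord and 102 to 175 TPM in cerebellum. The myelin protein gene mpz made up most of that sum, at 1279 to 2453 TPM in spinal cord and 73.7 to 137 TPM in cerebellum. Erbb3 and egr2 of this list were not called. Of 6 fibroblast and meningeal genes 5 were higher (median 2.27), with 21.9 to 72.8 TPM against 11.1 to 17.9 TPM in sum. The 3 of 3 tested leukocyte and microglia genes were higher too (median 2.09), with 4053 to 8332 TPM against 878 to 2730 TPM. Cd74 alone made up most of this last sum, at 3949 to 8005 TPM in spinal cord and 854 to 2628 TPM in cerebellum. The endothelial list had 4 of 9 higher (median 1.02) and the neuronal list 5 of 10 higher and 2 lower (median 0.84). The part of these cells in the level of hepacam was not tested.

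Genes with the most similar pattern were sought among those with a symbol and a mean TPM of at least 5, by Pearson's r of log2(TPM + 0.1) over the 18 libraries. The values are a description, since all libraries share 3 tissues, and a second r with the tissue means removed is given with each. That second r pools the tissues, and the 3 genes varied most between ganglion libraries, which therefore weigh most in it. For slc1a3 the closest 5 were gpr37l1 (r = 0.991, and 0.901 with tissue means removed), lrrtm2 (0.989 and 0.938), spock1 (0.987 and 0.899), apba2 (0.986 and 0.923) and fnbp1l (0.985 and 0.809). Gpr37l1, the gene of an orphan receptor found on glia in mammals, averaged 4.09 TPM in ganglion, 149 TPM in cerebellum and 188 TPM in spinal cord.

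For aqp4 the closest were znf281 (r = 0.976, and 0.826 with tissue means removed), trim65 (0.969 and 0.774), cunh5orf30 (0.967 and 0.796), ddx3x (0.966 and 0.754) and msh3 (0.965 and 0.739). For hepacam they were rassf10 (0.987 and 0.865), lpar4 (0.986 and 0.857), fam181b (0.983 and 0.853), pkp4 (0.983 and 0.961) and slc7a10 (0.982 and 0.926). No gene was among the closest 5 of more than 1 of the 3. Between the 3 genes themselves r was 0.711 for slc1a3 with aqp4, 0.676 for slc1a3 with hepacam and 0.038 for aqp4 with hepacam, and with tissue means removed it was 0.62, 0.895 and 0.586. Neither value for a pair with aqp4 is a relation shared by the tissues. Within single tissues, on log2 CPM, aqp4 with hepacam had r = 0.858 in ganglion, -0.178 in cerebellum and -0.881 in spinal cord. In the same order slc1a3 with aqp4 had r = 0.765, -0.012 and -0.495. Slc1a3 with hepacam had r = 0.877, 0.791 and 0.842, the cerebellum value resting on replicates 1 and 2.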

How the data were processed

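Raw counts for each gene, and TPM values computed by the authors, were deposited in 1 table, per the file headers. The submitters' processing notes name STAR 2.7.7a, Subread 2.0.1 with featureCounts, Trimmomatic 0.39 and CASAVA 1.8.2. Which genome build, annotation and strand setting were used is not given in the sources used here, and no positions or sequences are printed. Of 28031 genes, 17658 carry only a locus identifier, took 52.8% of the counts, were tested, and could not join a list by symbol. Further copies of the 3 genes or of the list genes among them were not examined.

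Counts were filtered by filterByExpr (20691 genes), scaled by TMM and fitted with edgeR 4.0.16 (quasi-likelihood F-test, all 18 libraries, tissue as the only factor, 15 residual degrees of freedom) in R 4.3.3. The SE is the log2 fold change divided by the root of F, and is approximate, as is the 95% interval. Alternatives used DESeq2 1.42.0 and limma 3.58.1. Exact permutation tests used log2(TPM + 0.1) in Python 3.11.15, and figures matplotlib 3.10.9. From each list the 3 genes (or fewer) with the highest mean TPM were named, of which 1 is not reported here. The 3 genes and the lists were chosen with earlier results of these data known. Libraries held at least 10346375 counts, and the lowest count of the 3 genes was 6, for aqp4.

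Labels number the libraries of each tissue 1 to 6. After tissue means were removed, same-number libraries correlated across genes at 0.124 to 0.403 between ganglion and spinal cord, 0.216 to 0.404 between spinal cord and cerebellum, and 0.0759 to 0.297 between ganglion and cerebellum. Every pair was above 0.1 for spinal cord with each other tissue, and 4 of 6 were for ganglion with cerebellum, where each library nevertheless correlated best with its own number. The same held for every spinal cord and cerebellum library set against each other, for every spinal cord library set against the ganglion, and for 5 of 6 ganglion libraries set against the spinal cord. The labels do not say that a number marks a fish. The main edgeR fit and the permutation tests between tissues take libraries as unpaired, and fits with the replicate number as a block are given below. No library was a copy of another of its tissue (lowest chi-square per degree of freedom 12.8).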

Additional observations from a re-analysis of the deposited data

Results flagged for a closer look

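Ganglion replicate 2 lay far from the other ganglion libraries in the balance of slc1a3 to the other genes. Its log2 ratio of slc1a3 over hepacam was -0.85, against 0.18 to 0.67 in the other 5 libraries, and its log2 ratio of slc1a3 over aqp4 was 3.6, against 4.65 to 5.25. It was picked out because its gap to the nearest library was 0.677 and 0.635 of the whole range, above Dixon's 95% critical value. Both ratios share the slc1a3 value of this library, and with 27 groups of 6 examined, chance flags about 1 in 20. The aqp4 ratio rests on 10 counts in that library. Without ganglion replicates 2 and 5, left out of the ratio tests after the data were seen, the difference in slc1a3 over hepacam was -4.23 against the cerebellum and -1.57 against the spinal cord, and no tissue comparison of a ratio lost its call (exact permutation test, adjusted p = 0.00476 for each of the 9).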

How the results depend on the processing

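The 6 called differences of slc1a3, aqp4 and hepacam kept their direction and call under DESeq2, RLE scaling, no filter, limma on log2(TPM + 1), the replicate number as a block, the 12 libraries of the compared tissues alone, without ganglion replicates 2 and 5, and with each of the 18 libraries left out. Leaving out a library gave -4.58 to -4.15 and -4.68 to -4.27 for slc1a3 in ganglion against cerebellum and spinal cord, -3.16 to -2.7 and -2.46 to -2.13 for aqp4 in ganglion and spinal cord against cerebellum, and -2.9 to -2.72 and 2.67 to 2.86 for hepacam in ganglion against spinal cord and spinal cord against cerebellum. With the replicate block slc1a3 was at -4.45 and -4.59, aqp4 at -2.86 and -2.29 and hepacam at -2.86 and 2.78, and the block changed no other call.

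Of the uncalled differences, hepacam in ganglion against cerebellum ran from -0.15 to 0.06 with single libraries left out, was above 0 without ganglion replicate 2 (0.04), ganglion replicate 5 (0.05) or cerebellum replicate 1 (0.06), and was 0.18 without ganglion replicates 2 and 5. Slc1a3 in spinal cord against cerebellum was -0.09 on log2(TPM + 1). The cause was not tested. On that scale 3054 genes were higher and 7006 lower in ganglion than in cerebellum, in place of 6132 and 4612 (30.4% of calls higher in place of 57.1%), and 1202 were higher than in spinal cord in place of 2990.

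The order of the genes within a tissue cannot pass with 5 libraries, where the smallest exact p is 0.0625. With 1 replicate left out the log2 difference was 4.57 to 4.9 (ganglion), 6.28 to 6.54 (cerebellum) and 8.58 to 8.94 (spinal cord) for slc1a3 minus aqp4, 0.05 to 0.35 (ganglion, the highest without replicate 2), 4.53 to 4.62 (cerebellum) and 1.9 to 1.94 (spinal cord) for slc1a3 minus hepacam, and -4.64 to -4.42, -1.96 to -1.66 and -7.04 to -6.66 for aqp4 minus hepacam. Without ganglion replicates 2 and 5 the ganglion values were 4.88 and -4.54. In the cerebellum, without replicates 1 and 2, r was 0.279 for slc1a3 with aqp4 and -0.458 for slc1a3 with hepacam. For the 9 ratios between genes, the test over same-number pairs (replicate block) gave the same differences, -5.04 to 2.38, with an adjusted exact p of 0.0312. Depth limits aqp4, at 6 counts in its lowest library.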

Other observations

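Aqp4 was compared between tissues over libraries with the same replicate number, a comparison chosen after its values were seen. In spinal cord and cerebellum, libraries 5 and 6 had the lowest levels of aqp4 in both tissues, at 1.74 and 1.51 CPM in the spinal cord and 8.25 and 10.4 CPM in the cerebellum. Pearson's r of log2 CPM over the 6 pairs was 0.902 (Spearman's rho 0.771, exact permutation p = 0.0167 and 0.103). Adjusted over the 9 relations examined (3 genes, 3 pairs of tissues) the p-values were 0.15 and 0.787, so the relation did not pass. Without libraries 5 and 6, r was 0.87 over the remaining 4 pairs. For ganglion with cerebellum r of aqp4 was 0.246, and for ganglion with spinal cord 0.052.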
